A study of Mus musculus with 8 samples.

Results

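Voltage-gated sodium and calcium channels, the hyperpolarization-activated HCN channels and the sodium leak channel NALCN set the excitability of neurons. Their genes were measured here in ribosome-bound RNA purified from cells of the Otp lineage, in mice whose Cic gene was floxed and in mice without that allele. The genes were taken from a list of 30 symbols for channel subunits. The count tables held 29 of them, of 24421 gene rows in all. The remaining symbol, Scn2a, is the current name of the gene that the tables call Scn2a1, so no gene of the list was lost. All 29 genes passed the filter on low counts that left 15438 genes for testing.

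The 8 libraries came from hypothalamus and medial amygdala of C57BL/6 mice. The 4 KO libraries were from mice with the alleles Otp-Cre, Cicflox/flox and ROSAfsTRAP, and the 4 Control libraries from mice with Otp-Cre and ROSAfsTRAP, which carry no floxed Cic. Both groups therefore express Cre in the Otp lineage and a Cre-dependent tag on ribosomes, with which bound RNA is purified (translating ribosome affinity purification). The labels give no age or sex and do not state that each library is a separate animal. The spread between libraries, which the p-values measure, may therefore be technical.

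A sodium channel consists of a pore-forming alpha subunit, which opens on depolarization and carries the rising phase of the action potential, and of beta subunits, which are adhesion-type membrane proteins that alter gating and surface level. A calcium channel consists of a pore-forming alpha1 subunit, an extracellular alpha2delta subunit and a cytoplasmic beta subunit, and couples firing to transmitter and peptide release. HCN channels open on hyperpolarization, bind cyclic AMP and contribute to pacemaking. NALCN is a leak channel that depolarizes neurons at rest, held in a complex with the large proteins UNC79 and UNC80. In the hypothalamus and amygdala such channels shape the burst and tonic firing of peptide neurons.

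Values are CPM, a gene's share of the library's counts on a fixed scale after TMM factors (which even out libraries of different composition). The 4 KO libraries held 33223878 to 49587839 gene counts and the 4 Control libraries 38171319 to 57300362. Cic, the targeted gene, fell by 1.10 on the log2 scale (edgeR adjusted p = 0.00220), with 34.5 to 59.3 CPM among KO libraries against 72.3 to 103 CPM among Control libraries, the direction its labels give. Summed CPM of neuronal markers lay between 12430 and 16540 (KO) and between 12160 and 14290 (Control; 8 of 8 markers with counts), those of the Otp lineage from 220.6 to 360.3 and 213.3 to 289.4 (6 of 6), those of oligodendrocytes from 1622 to 3006 and 2557 to 3249 (10 of 10), those of astrocytes from 797 to 1259 and 891 to 1308 (7 of 7) and those of oligodendrocyte precursors from 84.1 to 135.7 and 144.4 to 163.6 (6 of 6). The markers of microglia (9 of 9 with counts), of endothelial and mural cells (9 of 9) and of ependymal cells (6 of 6) each summed to under 50 CPM in every library, at most 49.7. Snap25, at a mean of 11070 CPM, made up most of the neuronal sum. Otp, the gene that defines the lineage, averaged 4.21 CPM. In such bulk RNA, fewer cells of a type and less RNA per cell cannot be told apart. The part of glial RNA in the channel values below was not tested.

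Windows before the starts of 3 genes are shown. Hcn2 and Scn9a are among the 3 members with the smallest p-values (the third, Scn3a, was not among the 23 members searched). Scn8a alone of those 23 held 1 of the 2 octamers searched, which are among those the CIC protein recognizes. The DNA octamers TGAATGAA and TGAATGGA were searched on both strands in the 250 bases before each annotated start (RefSeq, GRCm38.p6). Other forms of the CIC octamer were not searched, so the counts hold for these 2 alone. Of 33 such windows for 23 of the members 1 held an octamer (3.03%), against 2.07% of all 32851 windows. The window of Scn8a, chr15:100936021-100936270 on the plus strand, belongs to a downstream start inside the gene and carries TGAATGGA 89 bases before it, in capitals. Its last bases, a pyrimidine-rich stretch ending in ag, have the form of a splice acceptor. The windows of Hcn2 (chr10:79716384-79716633, plus strand) and Scn9a (chr2:66634963-66635212, minus strand) have their CG dinucleotides in capitals, 16 in Hcn2 and 5 in Scn9a against a median of 6 over all windows.
Scn8a: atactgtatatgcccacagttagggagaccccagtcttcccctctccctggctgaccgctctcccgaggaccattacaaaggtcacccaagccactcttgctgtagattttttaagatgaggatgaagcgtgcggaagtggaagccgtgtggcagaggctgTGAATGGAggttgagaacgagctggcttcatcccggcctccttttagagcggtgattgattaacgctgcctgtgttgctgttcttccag
Hcn2: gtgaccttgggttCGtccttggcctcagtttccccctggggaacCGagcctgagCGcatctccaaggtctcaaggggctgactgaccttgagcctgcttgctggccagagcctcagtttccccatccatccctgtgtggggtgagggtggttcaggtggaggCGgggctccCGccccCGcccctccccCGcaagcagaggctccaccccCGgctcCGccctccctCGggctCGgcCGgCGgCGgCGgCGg
Scn9a: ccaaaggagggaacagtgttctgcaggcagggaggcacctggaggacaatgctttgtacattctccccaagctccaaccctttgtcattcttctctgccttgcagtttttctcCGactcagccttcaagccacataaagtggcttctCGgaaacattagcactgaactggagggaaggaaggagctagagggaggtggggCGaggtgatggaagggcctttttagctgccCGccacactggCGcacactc
A match of letters is a description and shows no binding, and no match says only that these letters are not in the window.

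No channel gene of the list passed the test between KO and Control. Of the 29 members 0 rose and 0 fell at an edgeR adjusted p of 0.05 (quasi-likelihood test, Benjamini-Hochberg adjustment over all 15438 genes), where 0.259% of all genes tested passed, 0.194% higher and 0.0648% lower in KO. The smallest adjusted p was 0.269, for Scn3a. At an unadjusted p of 0.05, 3 members passed (10.3%, beside 10.6% of all genes tested). Of these 2 were higher and 1 lower in KO, beside 6.06% and 4.53% of all genes tested. DESeq2 and limma-voom also called 0 members at an adjusted p of 0.05, with 3 at an unadjusted p of 0.05 in each. In 1 of the 29 (3.45%), Hcn2, the 4 KO values did not overlap the 4 Control values, beside 5.93% of all genes tested, or 2.91% with the KO values lower. The median log2 fold change, KO over Control, was -0.010 over the members and 0.02 over all genes tested, and 14 members were positive and 15 negative. The share of members called or not overlapping was thus near or under that of all genes.

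Counts per member and library ran from 302 (Hcn4) to 24312 (Unc80), and the median coefficient of variation over the members was 15% in KO and 11.6% in Control, against 19.7% and 13.2% over all genes tested. The 95% interval of the fold change lay inside 1.5-fold in both directions for 23 of 29 members (79.3%, against 53.3% of all genes tested) and inside 2-fold for all 29. The 6 members whose interval passed 1.5-fold were Scn3a, Scn9a, Cacna1e, Hcn2, Scn2b and Cacna2d3.

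**Figure D1:**
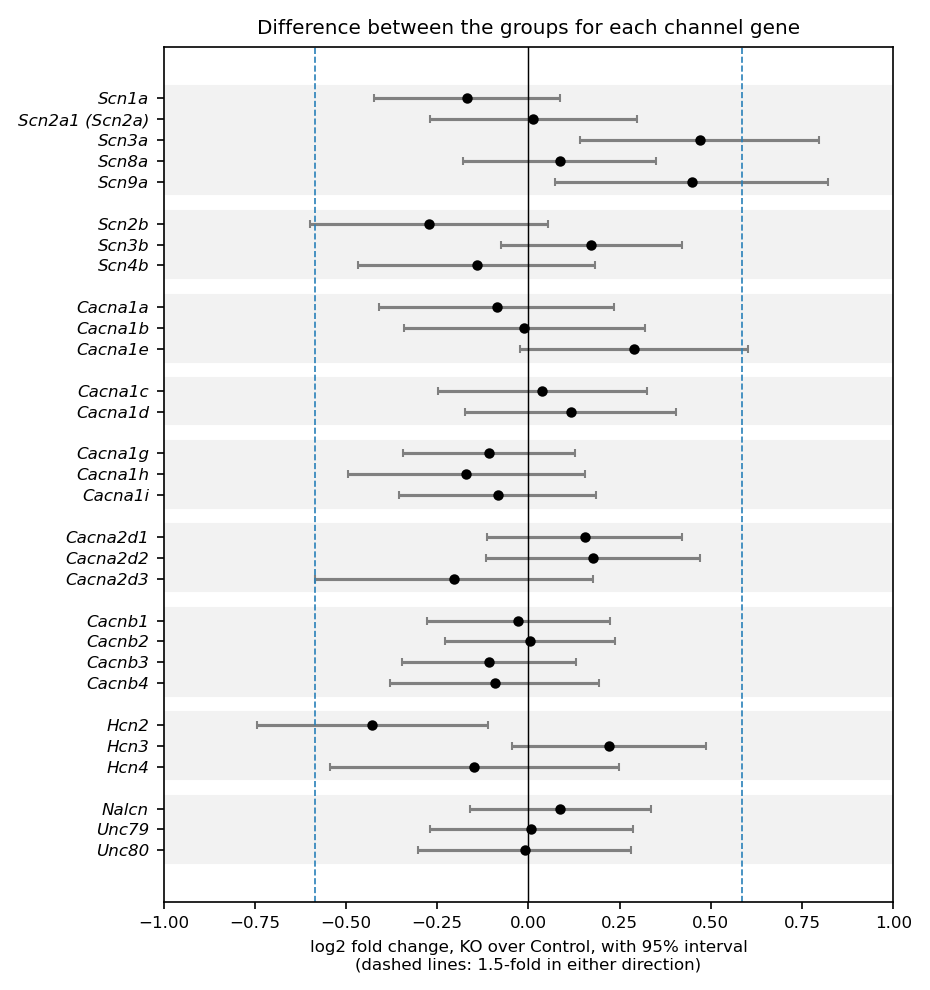
Log2 fold change (KO over Control) of each of the 29 channel genes on the x axis with its 95% interval (bars) from the edgeR fit over 4 KO and 4 Control libraries, grouped by subunit type; dashed lines mark 1.5-fold. Intervals of 26 genes include 0, those of Scn3a and Scn9a lie above it and that of Hcn2 below it, before any adjustment for the 15438 genes tested.

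Sodium channel alpha subunits were led by 3 genes at similar levels. Scaled per kb of exon (GENCODE M21, union of annotated exons), Scn1a, the main alpha subunit of many inhibitory neurons, had 15.9 ± 1.86 CPM per kb (mean ± SD over all 8 libraries), Scn2a1, an alpha subunit of axons, 14.5 ± 2.12, and Scn8a, the alpha subunit of the mature axon initial segment, 13.8 ± 1.69. Scn1a was above Scn2a1 in 6 of 8 libraries and Scn2a1 above Scn8a in 5 of 8, so these neighbours were not separated by more than their spread. The libraries with Scn1a above Scn2a1 were every Control library and KO replicates 2 and 3. Scn3a, best known as an alpha subunit of the embryonic brain, followed at 3.71 ± 0.898, and Scn9a, known from pain-sensing neurons and also present in hypothalamic neurons, at 1.36 ± 0.329 CPM per kb. Both steps held in 8 of 8 libraries.

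Scn1a measured 179.7, 187, 165 and 137 CPM in KO replicates 1 to 4 and 184, 168, 202 and 196 CPM in Control replicates 1 to 4. KO replicate 4 was the lowest library and the other KO libraries lay within the Control range or just below it (a log2 fold change of -0.17 with SE 0.12 and edgeR adjusted p = 0.691).

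Scn3a measured 59.3, 49.4, 61.3 and 44.5 CPM in KO replicates 1 to 4 and 47.0, 30.0, 45.8 and 32.1 CPM in Control replicates 1 to 4. Control replicates 2 and 4 were low and Control replicates 1 and 3 lay just above KO replicate 4, where the groups overlapped. The log2 fold change was 0.47 (95% interval 0.14 to 0.80, unadjusted edgeR p = 0.00729, edgeR adjusted p = 0.269, exact two-sided permutation p = 0.0857, 1 of 29 such tests, where 4 against 4 allows no less than 0.0286). Scn9a measured 20.8, 17.2, 18.7 and 23.5 CPM in KO replicates 1 to 4 and 12.5, 15.1, 20.01 and 11.4 CPM in Control replicates 1 to 4. Here Control replicate 3 lay inside the KO range and the other 3 Control libraries below it (a log2 fold change of 0.45, 95% interval 0.07 to 0.82, unadjusted edgeR p = 0.0214, edgeR adjusted p = 0.367, exact permutation p = 0.0857). Neither gene passed the test over all genes. All 6 Otp-lineage markers also had positive values, with a median log2 fold change of 0.47 and 0 that rose. At an unadjusted edgeR p of 0.05, 2 passed, Sim1 at 0.65 and Nhlh2 at 0.44 (33.3%, beside 10.6% of all genes tested). Of the 6, Nhlh2 alone did not overlap between the groups (16.7%, beside 5.93%). Arnt2, at 0.10 and a mean of 206 CPM, made up most of their summed CPM given above. The part of this shift in the sodium channel values was not tested.

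Scn3a, Scn2a1, Scn1a, Scn9a and Scn7a lie in this order in 1 cluster on chromosome 2, with Scn3a at 65457118 to 65567627 and Scn9a at 66480080 to 66634962 on GRCm38. Log2 fold changes along the cluster were 0.47 for Scn3a, 0.01 for Scn2a1, -0.17 for Scn1a, 0.45 for Scn9a and 0.39 for Scn7a, so its genes did not have 1 common value. Scn7a, a sodium-sensing relative found in glia and at circumventricular organs, is no member of the list and had an edgeR adjusted p of 0.643. Scn2a1 had 185 ± 28.4 CPM in KO and 183 ± 30.0 CPM in Control and Scn8a 224 ± 31.6 CPM in KO and 211 ± 23.2 CPM in Control (n = 4 each), with edgeR adjusted p = 0.984 and 0.876.

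**Figure D2:**
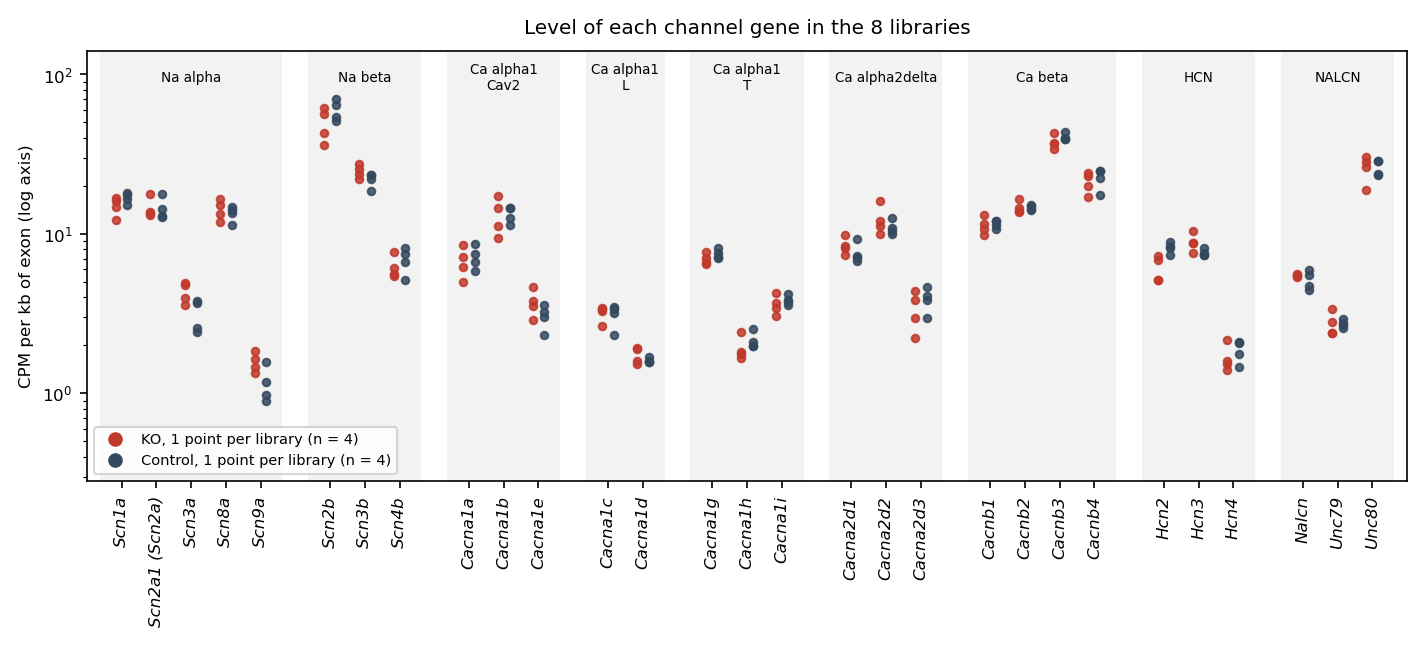
Level of each channel gene as CPM per kb of exon on a log axis, 1 point per library, KO in red and Control in dark blue, grouped by subunit type. Scn2b, Cacnb3 and Unc80 are the highest, Scn9a the lowest, and the colours overlap in 28 of the 29 genes.

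Scn2b was the most abundant of the 3 sodium channel beta subunits of the list and the highest of all members per kb, at 54.5 ± 11.2 CPM per kb, above 94.1% of tested genes with a known length. Scn3b followed at 23.3 ± 2.59 and Scn4b, the subunit linked to resurgent current, at 6.53 ± 1.15, an order that held in 8 of 8 libraries. Scn2b measured 289, 168, 263 and 199.8 CPM in KO replicates 1 to 4 and 298, 236, 326 and 251 CPM in Control replicates 1 to 4. KO replicates 2 and 4 were the lowest of the 8 libraries and KO replicates 1 and 3 lay inside the Control range (a log2 fold change of -0.27 with SE 0.16 and edgeR adjusted p = 0.573). Scn3b had 135 ± 12.6 CPM in KO and 119.5 ± 12.4 CPM in Control (edgeR adjusted p = 0.669). Scn4b had 30.9 ± 5.23 CPM in KO and 34.1 ± 6.51 CPM in Control (edgeR adjusted p = 0.819, n = 4 each).

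Of the calcium channel alpha1 subunits, those of the presynaptic N-, P/Q- and R-type channels were led by Cacna1b (N-type) at 13.1 ± 2.52 CPM per kb. Cacna1a (P/Q-type) had 6.92 ± 1.27 and Cacna1e (R-type) 3.37 ± 0.684. The order per kb was the same in 8 of 8 libraries. It depends on the exon lengths used, 25.23 kb for Cacna1e and 11.42 kb for Cacna1a. Cacna1b measured 172, 111, 144 and 93.2 CPM in KO replicates 1 to 4 and 144, 124, 144 and 113 CPM in Control replicates 1 to 4. The KO libraries held both the highest and the lowest value, so the KO spread enclosed the Control spread (a log2 fold change of -0.01 with SE 0.16 and edgeR adjusted p = 0.988). Cacna1e had 93.5 ± 18.0 CPM in KO and 76.6 ± 13.3 CPM in Control (a log2 fold change of 0.29, 95% interval -0.02 to 0.60, edgeR adjusted p = 0.516) and Cacna1a 76.7 ± 17.1 CPM in KO and 81.5 ± 13.5 CPM in Control (edgeR adjusted p = 0.900).

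Of the L-type subunits, which couple calcium entry to gene expression and pacemaking, Cacna1c had 3.14 ± 0.423 and Cacna1d 1.67 ± 0.153 CPM per kb, with Cacna1c higher in 8 of 8 libraries. Cacna1c measured 69.5, 72.9, 71.1 and 55.9 CPM in KO replicates 1 to 4 and 71.5, 49.2, 73.6 and 68.0 CPM in Control replicates 1 to 4. Control replicate 2 and KO replicate 4 were low and the other 6 libraries lay between 68.0 and 73.6 CPM (a log2 fold change of 0.04 at edgeR adjusted p = 0.953). Cacna1d had 21.9 ± 2.49 CPM in KO and 20.2 ± 0.753 CPM in Control (edgeR adjusted p = 0.838).

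The T-type subunits, which support low-threshold bursts, were led by Cacna1g at 7.23 ± 0.562 CPM per kb, then Cacna1i at 3.72 ± 0.388 and Cacna1h at 2.03 ± 0.306, in this order in 8 of 8 libraries. Cacna1g measured 65.8, 77.8, 71.3 and 67.1 CPM in KO replicates 1 to 4 and 83.0, 72.8, 76.6 and 71.7 CPM in Control replicates 1 to 4. The groups overlapped, with KO replicate 2 inside the Control range (a log2 fold change of -0.11 with SE 0.11 and edgeR adjusted p = 0.807). The other T-type genes had log2 fold changes of -0.08 (Cacna1i) and -0.17 (Cacna1h), with edgeR adjusted p = 0.882 and 0.768. All 3 values were negative, also under each of the 17 alternatives, where Cacna1h reached -0.31 without KO replicate 1. In the main fit the 95% intervals of all 3 included 0.

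All 8 alpha1 genes were also ordered by CPM per kb. On this scale Cacna1g was above Cacna1a in 5 of 8 libraries and Cacna1i above Cacna1e in 5 of 8. Cacna1e was above Cacna1c in 5 of 8 and Cacna1h above Cacna1d in 6 of 8. In CPM without this scale Cacna1e, with 25.23 kb of exon, was above Cacna1i and Cacna1c in every library. Over the pooled libraries these neighbours were not separated by more than their spread, but some orders differed between the groups. Per kb, Cacna1i was above Cacna1e in every Control library and, among KO libraries, in replicate 4 alone. Cacna1e was above Cacna1c in every KO library and, among Control libraries, in replicate 3 alone. Cacna1h was above Cacna1d in every Control library and in KO replicates 1 and 2. These orders by group were looked at after the values were seen and were not tested.

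Of the auxiliary calcium channel subunits, Cacnb3, Cacnb4 and Cacnb2 had higher mean levels per kb than any calcium channel pore. Among alpha2delta subunits, which carry channels to the membrane and include the targets of gabapentin, Cacna2d2 had 11.6 ± 2.05, Cacna2d1 8.01 ± 1.09 and Cacna2d3 3.62 ± 0.819 CPM per kb, in this order in 8 of 8 libraries. Cacna2d2 measured 88.5, 128, 96.2 and 79.4 CPM in KO replicates 1 to 4 and 82.2, 86.2, 99.5 and 79.2 CPM in Control replicates 1 to 4. KO replicate 2 was high and the other 3 KO libraries lay inside the Control range (a log2 fold change of 0.18 with SE 0.14 and edgeR adjusted p = 0.725). Cacna2d1 had 105 ± 12.4 CPM in KO and 94.1 ± 14.1 CPM in Control (edgeR adjusted p = 0.742). Cacna2d3 had 29.3 ± 8.31 CPM in KO and 33.7 ± 6.08 CPM in Control (edgeR adjusted p = 0.763), with KO replicate 3 low at 19.4 CPM.

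Beta subunits, chaperones that bind the alpha1 subunit from inside the cell, ran from Cacnb3 at 39.2 ± 3.28 through Cacnb4 at 21.8 ± 3.15 and Cacnb2 at 14.7 ± 0.971 to Cacnb1 at 11.4 ± 0.989 CPM per kb, in 8 of 8 libraries at each step. Cacnb3 measured 136, 148, 173 and 148 CPM in KO replicates 1 to 4 and 157, 175, 158 and 161 CPM in Control replicates 1 to 4. KO replicate 3 lay in the Control range and the other 3 KO libraries below it (a log2 fold change of -0.11 with SE 0.11 and edgeR adjusted p = 0.811). Cacnb1, Cacnb2 and Cacnb4 had log2 fold changes of -0.03, 0.0046 and -0.09, with edgeR adjusted p = 0.963, 0.993 and 0.873. Cacnb4 shares 16% of its exon bases with A430018G15Rik on the opposite strand, and reads of the pair cannot be told apart without strand.

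HCN channels held the only member whose KO and Control values did not overlap, Hcn2. Over all 8 libraries Hcn3 had 8.26 ± 1.02 CPM per kb, Hcn2 7.16 ± 1.41 and Hcn4 1.76 ± 0.306. Per kb, Hcn3 was above Hcn2 in 5 of 8 libraries, which were every KO library and Control replicate 4. In CPM without this scale Hcn3 was above Hcn2 in every library. The order per kb thus depends on the exon lengths used, 4.154 kb for Hcn3 and 3.195 kb for Hcn2. The means of Hcn3 and Hcn2 were 8.88 and 6.10 CPM per kb in KO, and 7.63 and 8.21 in Control.

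Hcn2, a slowly gated subunit with a strong cyclic AMP response, measured 16.4, 23.3, 16.4 and 22.0 CPM in KO replicates 1 to 4 and 26.2, 26.9, 28.4 and 23.5 CPM in Control replicates 1 to 4. Every KO library lay below every Control library, by a narrow gap between KO replicate 2 at 23.3 and Control replicate 4 at 23.5 CPM. The log2 fold change was -0.43 (95% interval -0.74 to -0.11, unadjusted edgeR p = 0.0105, edgeR adjusted p = 0.302, exact two-sided permutation p = 0.0286, the smallest the design allows, 1 of 29 such tests), so Hcn2 did not pass over all genes. The gene spans bases 79716634 to 79736108 of chromosome 10 (GRCm38, plus strand, ENSMUSG00000020331.9). Hcn2 is also known from oligodendrocytes. Of the 10 oligodendrocyte markers 10 had negative values, with a median log2 fold change of -0.34. Of these 1, Cldn11, fell (by 0.81 on the log2 scale, edgeR adjusted p = 0.0375). At an unadjusted edgeR p of 0.05, 5 of the 10 passed, all lower in KO (50%, beside 10.6% of all genes tested). In 4 of the 10 the groups did not overlap (40%, beside 5.93%). The summed CPM of the 10 overlapped between the groups (exact permutation p = 0.171). Of the 6 markers listed for precursors 6 were negative and 0 fell. Their summed CPM did not overlap (exact permutation p = 0.0286, the smallest possible). Olig1, at a mean of 85.5 CPM, made up most of this sum, followed by Sox10 (19.4) and Olig2 (17.6). Gpr17, Pdgfra and Cspg4 averaged 8.48, 3.69 and 2.49 CPM. Whether the sum is particular to precursors was not tested. Most markers of microglia (8 of 9), ependymal cells and tanycytes (5 of 6), endothelial and mural cells (6 of 9) and astrocytes (5 of 7) were also negative. Of the neuronal markers 6 of 8 were positive. The part of oligodendrocytes, their precursors or other cells in the Hcn2 value was not tested.

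Hcn3 measured 31.7, 36.6, 43.1 and 36.2 CPM in KO replicates 1 to 4 and 30.8, 30.7, 33.6 and 31.6 CPM in Control replicates 1 to 4. KO replicate 3 was high and KO replicate 1 lay inside the Control range (a log2 fold change of 0.22 with SE 0.13 and edgeR adjusted p = 0.581). Hcn3 shares 17.1% of its exon bases with Pklr on the opposite strand, which limits this value. Hcn4, the main pacemaker subunit of the heart, had 10.2 ± 2.03 CPM in KO and 11.3 ± 1.81 CPM in Control (edgeR adjusted p = 0.848).

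As a share of the summed CPM per kb of the 3 HCN members, Hcn2 took 29.1 to 41.2% in KO and 44.0 to 48.7% in Control, and Hcn3 49.8 to 58.8% and 42.0 to 45.5%. The ranges of Hcn4, 8.88 to 12.2% and 8.48 to 11.6%, overlapped. These shares sum to a fixed whole and were chosen after the values were seen, so they are a description with no test.

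**Figure D3:**
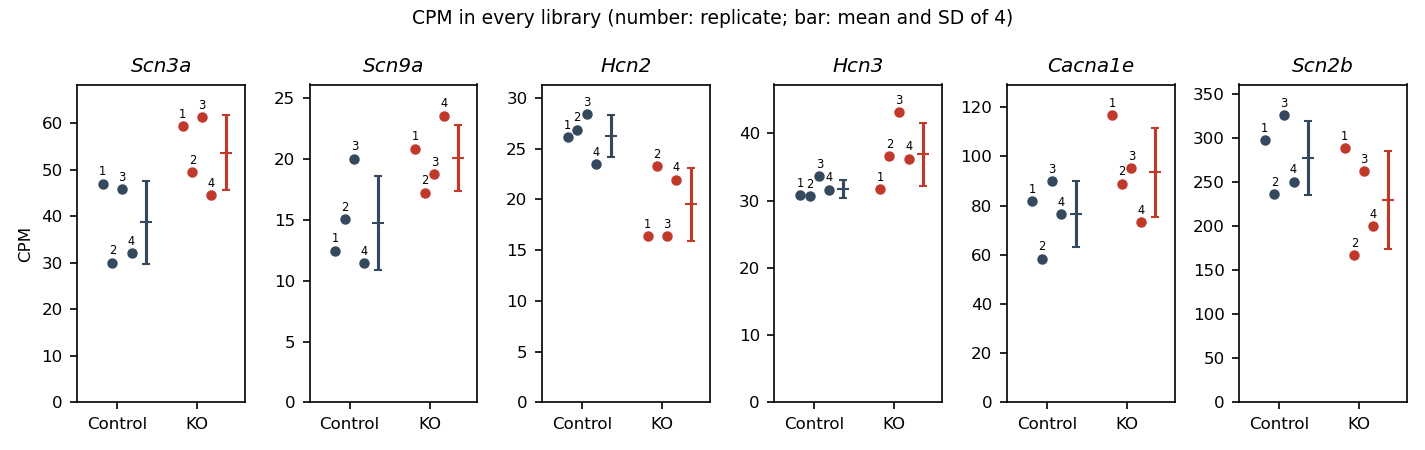
CPM in every library for Scn3a, Scn9a, Hcn2, Hcn3, Cacna1e and Scn2b, with y axes from 0, replicate numbers beside the points and the mean and SD of 4 libraries as a bar. The groups do not overlap in Hcn2 and overlap in the other 5 genes.

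None of the 3 NALCN complex genes passed the test, and all 3 had a 95% interval inside 1.5-fold. Unc80, which couples the complex and is needed for its surface level, had 26.1 ± 3.81 CPM per kb, Nalcn, the pore, 5.31 ± 0.495, and Unc79 2.73 ± 0.329, in this order in 8 of 8 libraries. Unc80 measured 407, 440.0, 379 and 274 CPM in KO replicates 1 to 4 and 416, 343, 414 and 337 CPM in Control replicates 1 to 4. KO replicate 4 stood apart on the low side and the other 7 libraries lay between 336.8 and 440.0 CPM (a log2 fold change of -0.01 with SE 0.14 and edgeR adjusted p = 0.988). Nalcn had 80.4 ± 1.44 CPM in KO and 75.8 ± 10.4 CPM in Control (n = 4 each, a log2 fold change of 0.09 at edgeR adjusted p = 0.861). Unc79 had 39.1 ± 6.80 CPM in KO and 38.9 ± 2.24 CPM in Control (edgeR adjusted p = 0.991).

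Some libraries were low or high for many of the members. KO replicate 4 had the lowest KO value for 13 of 29 members and Control replicate 2 the lowest Control value for 14 (Control replicate 4 for 11), whereas Control replicate 3 had the highest Control value for 17 and the lowest for 0. Others were mixed: KO replicate 1 was the lowest KO library for 8 members and the highest for 10, and KO replicate 2 for 5 and 10. The median log2 deviation of the members from their mean over libraries ran from -0.15 in KO replicate 4 and -0.12 in Control replicate 2 to 0.15 in Control replicate 3. The members' summed share of gene counts was 0.292% ± 0.0284 for KO libraries and 0.298% ± 0.0254 for Control libraries (± SD, n = 4).

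**Figure D4:**
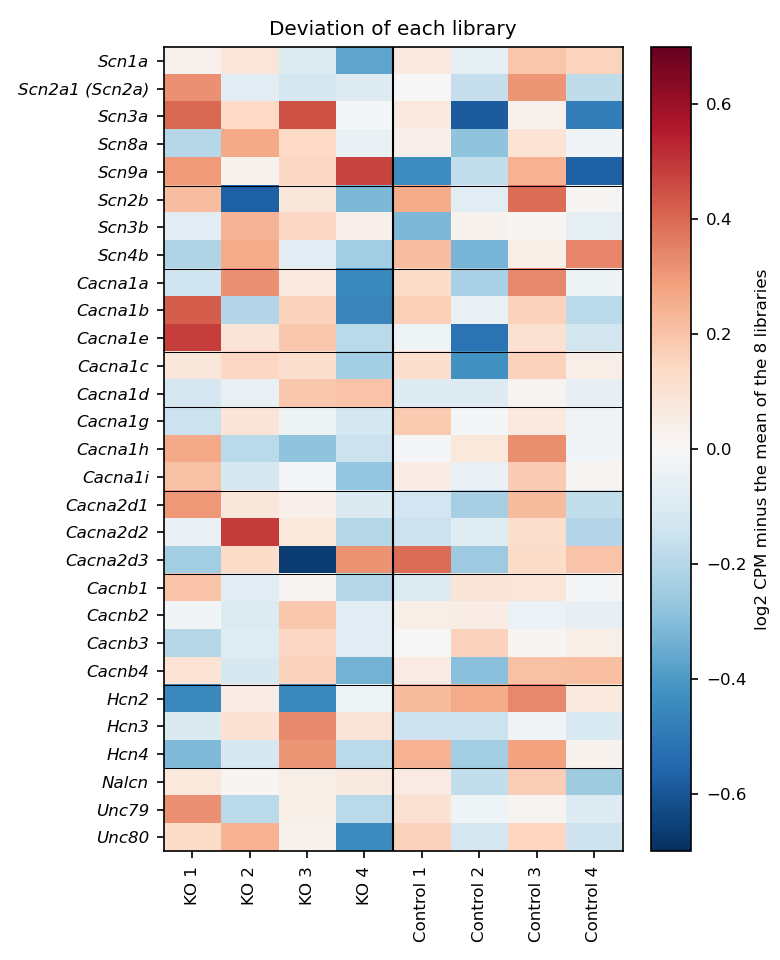
Log2 CPM of each channel gene (rows) minus its mean over the 8 libraries, for each library (columns), on a colour scale from blue (lower) to red (higher). KO 4 and Control 2 are mostly blue (medians -0.15 and -0.12) and Control 3 mostly red (median 0.15).

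GC content and length of the transcripts moved with these values, and their part in them was not tested. The members are long, with a median of 10.1 kb of exon against 4.36 kb over the 14871 tested genes with an annotation. KO replicate 4 and Control replicate 2, the low libraries, had lower values for longer genes (Spearman rho of the deviation with exon length -0.248 and -0.16 across genes), and KO replicate 1 and Control replicate 3 higher ones (0.182 and 0.111). Over all genes the median log2 fold change went from 0.07 in the lowest of 6 equal bins of GC content to -0.05 in the highest. Scn3a and Scn9a lie in the former, at 42.1% and 42.4% GC, and Hcn2 in the latter, at 65.4% GC and only 3.195 kb of exon. Across the 29 members the fold change had a Spearman rho of -0.444 with GC content and of 0.49 with exon length. Over the 14871 genes these were weaker, at -0.128 and 0.0569. They are given as a description, since the genes share their libraries. With offsets for GC content and length, chosen after the data were seen, the log2 fold changes of Scn3a, Scn9a and Hcn2 were 0.40, 0.38 and -0.31, and 0 members passed.

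**Figure D5:**
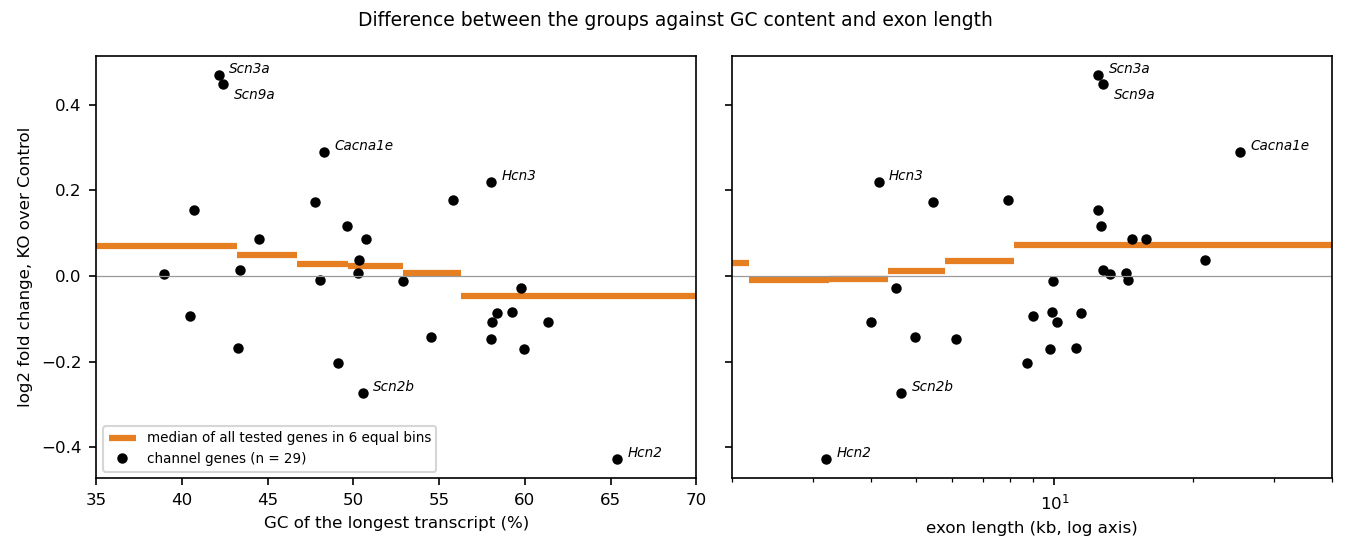
Log2 fold change (KO over Control) of the 29 channel genes (black points) against GC content of the longest transcript (left) and exon length on a log axis (right); orange lines give the median of all tested genes in 6 equal bins. The medians fall from 0.07 to -0.05 with GC content, and Scn3a, Scn9a and Hcn2 lie beyond them in the same direction.

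Of other subunits of the same families 17 genes are reported here, which are not the whole list, so their counts hold for these genes alone. Of these 16 had a row and 11 were tested, with 7 positive and 4 negative values and a median log2 fold change of 0.10. Of the 11, 0 rose or fell, beside 0.259% of all genes tested. At an unadjusted p of 0.05 in the edgeR fit 0 passed, beside 10.6% of all genes tested. The largest count of the 5 untested genes, Scn4a, Scn10a, Cacna1f, Cacng1 and Cacng6, was 24 in any library. Cacna2d4, an alpha2delta subunit best known from the retina, and Cacng5, a gamma subunit, had log2 fold changes of -0.39 and -0.09 (edgeR adjusted p = 0.635 and 0.872). On the positive side Scn7a is given above and Cacng3, which also acts on AMPA receptors, had 0.16 (edgeR adjusted p = 0.727).

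Of 24 anchors, partners and modulators of these channels, all tested, 12 were positive and 12 negative. Their median log2 fold change was 0.0080, and 0 rose or fell. At an unadjusted p of 0.05 in the edgeR fit 1 passed (4.17%, beside 10.6% of all genes tested). Those of smallest p were Cabp1, a calcium-binding protein that modulates calcium channels, at -0.53 (edgeR adjusted p = 0.266) and Sptbn4, a spectrin of the axon initial segment, at -0.40 (2.06 Mb from Cic, edgeR adjusted p = 0.490). As the floxed allele was present in KO mice alone, for Sptbn4 DNA linked to that allele and loss of Cic cannot be told apart. On the positive side these were the ankyrin gene Ank2 at 0.33 and Stac2 at 0.26 (edgeR adjusted p = 0.506 and 0.526). Ank3, which anchors sodium channels at the initial segment, had 198 ± 52.9 CPM in KO and 212 ± 29.6 CPM in Control (edgeR adjusted p = 0.897).

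Of 52 potassium channel genes, all tested, 27 were positive and 25 negative with a median log2 fold change of 0.01, and 0 rose or fell. At an unadjusted p of 0.05 in the edgeR fit 8 passed (15.4%, beside 10.6% of all genes tested), 2 higher and 6 lower in KO, and 5 (9.62%, beside 5.93%) had no overlap between the groups. Kcnh3 had 2.30 ± 0.992 CPM in KO and 5.35 ± 1.17 CPM in Control (a log2 fold change of -1.22 at edgeR adjusted p = 0.137) and Kcnj9, a subunit of G protein-gated channels, 60.5 ± 8.25 CPM in KO and 79.1 ± 4.62 CPM in Control (-0.39, edgeR adjusted p = 0.225, n = 4 each). On the positive side Kcnip1 and Kcnb2 had log2 fold changes of 0.31 and 0.40 (edgeR adjusted p = 0.321 and 0.438). Whether the sodium, calcium and HCN genes differ from the potassium channel genes was not tested.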

How the data were processed

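Each library has 1 table of whole-number counts, deposited by the authors as reads per gene symbol with no normalization. The submitters' processing notes name TopHat2 2.0.9, HTSeq, DESeq2 and the build mm10. The annotation and the strand setting were not given in the sources used here. Per the labels' protocols, 10 ng of RNA was amplified by poly(A) and random priming without molecular identifiers; intervals rest on the spread between libraries. The 92 ERCC and 5 counter rows were left out. Relative to gene counts, ERCC counts were 0.0655, 0.0569, 0.395 and 0.0739% in KO replicates 1 to 4. In Control replicates 1 to 4 they were 0.299, 0.522, 0.401 and 0.327%. Alignments counted as not unique ran from 63.3% of all rows' counts (Control replicate 1) to 81.9% (KO replicate 4, which also had the fewest gene counts). The part of these differences in the channel values was not tested. The lowest chi-square per degree of freedom over 28 library pairs was 27.2, so no library repeats another.

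Genes were tested with edgeR 4.0.16 (R 4.3.3): genes kept by filterByExpr at a minimum count of 10 and a minimum total of 15, TMM factors, a robust quasi-likelihood fit with the group as its only term over all 8 libraries, Benjamini-Hochberg over 15438 genes, threshold 0.05. The fit and its 95% intervals were tested on simulated counts, drawn independently for each gene and library with the dispersions estimated here. Effects shared by many genes of a library, such as those with GC content and length, were not simulated, so the simulation cannot speak to them. Alternatives used DESeq2 1.42.0, limma-voom (limma 3.58.1), other scalings, no filter, a replicate block and each library left out. Per-kb levels use GENCODE M21 (GRCm38), matched by symbol for 96.3% of genes. They divide by the union of annotated exons, so an order of genes per kb depends on that length. Some genes of the list of other subunits are not reported here. Members and lists were chosen with earlier results of these data known. By the rule for named genes, all members are named, with every library's value for those past an unadjusted p of 0.05, those with no overlap and the most abundant of each subunit type, and for other lists the 2 genes of smallest p in each direction; Ank3 and the GC examples were chosen after their values were seen.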

Additional observations from a re-analysis of the deposited data

Results flagged for a closer look

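Among 58 groups of 4 libraries (29 members in KO and in Control), 1 library stood apart from its group by Dixon's test. Scn2a1 had 228 CPM in KO replicate 1, against 168 to 173 CPM in the other 3 KO libraries, a gap of 0.905 of the whole range and past the test's 95% critical value. Chance flags about 1 in 20 such groups. Without KO replicate 1 the log2 fold change of Scn2a1 was -0.11, against 0.01 with it, and neither value passed the test (edgeR adjusted p = 0.821 and 0.984).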

How the results depend on the processing

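The number of members called was 0 in each of 17 alternatives, and the smallest adjusted p of a member in any of them was 0.114 (Scn3a, replicate block). Scn3a, Scn9a and Hcn2 kept their sign in all 17, with log2 fold changes of 0.36 to 0.58, 0.34 to 0.63 and -0.53 to -0.31. Their unadjusted p stayed under 0.05 in 17, 14 and 17 of them. The count of positive members moved between 11 and 18, against 14. The number of all genes called was 40 and moved to 26 with total counts only, 22 with limma-voom, 198 with the DESeq2 test and 65 with the replicate block. It ran from 14 to 53 with 1 library left out (Control replicates 1, 2, 3 and 4 gave 19, 17, 26 and 14 when left out, and KO replicate 2 gave 26); the cause was not tested. The labels do not say that a replicate number marks a shared litter or day. Deviations of same-numbered libraries correlated at -0.048 to 0.1, and 2 of 8 libraries correlated best with their own number.

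Of the members 20 kept their sign throughout and 9, all near 0, did not; the cause was not tested. Cacnb2 turned to -0.0040 with DESeq2 size factors in edgeR, -0.026 with upper-quartile scaling, -0.011 with total counts, -0.0060 with no filter, -0.0036 with the DESeq2 test, -0.0087 without the Rn45s row and -0.091 with GC and length offsets. Unc79 turned to -0.023 with upper-quartile scaling, -0.0099 with total counts, -0.0022 with no filter, -0.00099 with limma-voom, -0.0052 without the Rn45s row, -0.0061 with the replicate block and -0.036 with GC and length offsets. Scn2a1 turned to -0.014 with upper-quartile scaling, -0.0018 with total counts and -0.056 with GC and length offsets, Cacna1c to -0.011 and Cacnb1 to 0.059 with GC and length offsets. With 1 library left out the log2 fold changes ran from -0.11 to 0.13 (Scn2a1), -0.12 to 0.062 (Unc79), -0.0044 to 0.15 (Scn8a), -0.19 to 0.11 (Cacna1b), -0.080 to 0.11 (Cacna1c), -0.062 to 0.026 (Cacnb2), -0.23 to 0.025 (Cacna1a), -0.12 to 0.024 (Cacnb1) and -0.11 to 0.11 (Unc80).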

Other observations

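Shares within a subunit type, computed from CPM per kb and looked at after the values were seen, separated the groups in a few further cases and are given with no test. Such shares were computed for all 29 members. Apart from Hcn2, Hcn3, Scn1a, Scn3a and Cacna1e, the ranges of every member overlapped. Shares of this kind were not computed for other genes, so how often they separate over all genes is not known. In CPM, Hcn2 alone of these did not overlap (3.45% of the 29 members, beside 5.93% of all genes tested). Shares of a type sum to a fixed whole, so those of its genes do not move independently. Among sodium channel alpha subunits Scn1a took 27.6 to 32.1% in KO and 32.4 to 37.2% in Control, and Scn3a 7.60 to 9.94% and 5.44 to 7.59%, ranges that nearly touch. Scn2a1 took 26.1 to 34.2% and 26.8 to 31.8% and Scn8a 22.8 to 31.6% and 26.3 to 28.6%. Scn9a took 2.58 to 4.15% and 1.89 to 2.81%, and the ranges of Scn2a1, Scn8a and Scn9a overlapped. Among the N-, P/Q- and R-type alpha1 subunits Cacna1e took 14.9 to 16.8% and 11.2 to 14.4%. In the NALCN complex Unc80 took 70.6 to 79.8% and 76.4 to 77.4%, which overlapped.

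The spread of single members differed between genes. Nalcn had a coefficient of variation of 1.79% in KO and 13.7% in Control, and Cacna1d 11.4% and 3.72%, whereas Cacna2d3 had 28.4% and 18.0% and Cacna1b 26.9% and 11.8%.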
